A study of Mus musculus with 5 samples.

Results

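The Egr, Fos and Jun genes examined here were Egr1, Egr2, Egr3, Egr4, Fos, Fosb, Fosl2, Jun and Junb, 9 of the 21631 protein-coding genes annotated on chromosomes 1 to 19 and X. They were taken as a list of named family members, and each took the peaks whose summit, the base of highest signal, fell inside the gene or within 20 kb of it. By this rule 3 of the 9 genes had an HSF1 peak, with 4 peaks among the 3646 of the NMDA list and 1 among the 3316 of the control list. HSF1, the heat shock transcription factor, had been mapped in the genome by ChIP-seq, the sequencing of DNA pulled down with an antibody against a chromatin protein, in wild-type primary cortical neurons from Swiss-Webster mouse embryos of day 16, collected on day 13 of culture. There were 2 NMDA libraries, 2 control libraries without treatment and 1 input library of untreated neurons. The NMDA neurons received 50 µM NMDA, an agonist of a class of glutamate receptors, for 10 min and then spent 20 min in medium without the drug. Each condition was deposited as 1 peak list, so no value below has a replicate error, and no difference between the conditions could be tested.

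These genes encode transcription factors of the immediate early response, which neurons switch on within minutes of synaptic activity without new protein synthesis. The EGR proteins are zinc finger factors that bind GC-rich sites, while FOS and JUN proteins pair through leucine zippers to form AP-1. Serum response factor (SRF), which binds the CArG box, and CREB, which binds the CRE, are well-known activators of their promoters.

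The lists frame what follows. Median fold enrichment, the authors' ratio of ChIP signal to background at a summit, was 2.69 for NMDA peaks and 2.67 for control peaks, and a q below 0.05 was listed for 76.3% and 68.9% of peaks in the NMDA and control lists. The lists were made separately, so a fold is read only within its own list. Read depth is unknown. Positions are on GRCm38.

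HSF1 peaks near the family were found at Egr1, Egr2 and Fosb after NMDA, and at Egr2 in the control list. Neither list had a peak at the other 6 genes, as for 79.3% of all protein-coding genes. Thus 3 of 9 genes had a peak within 20 kb in the NMDA list, where 11.4% of all protein-coding genes did, and 1 of 9 had one in the control list, where 12.6% did. Immediate early genes are short, and the window counts the gene body, so longer genes have more room for a peak. The median length was 3.75 kb for the 9 genes and 17.3 kb for all protein-coding genes. Among protein-coding genes no longer than Fosl2, the longest of the 9 at 21.4 kb, 6.4% had an NMDA peak and 7.8% a control peak within 20 kb. Both comparisons rest on 9 genes and are descriptions, since the genes were chosen with results of these lists known. Fosl1 and Jund, the other Fos and Jun genes, are not among the 9 and had no peak within 20 kb in either list.

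**Figure D1:**
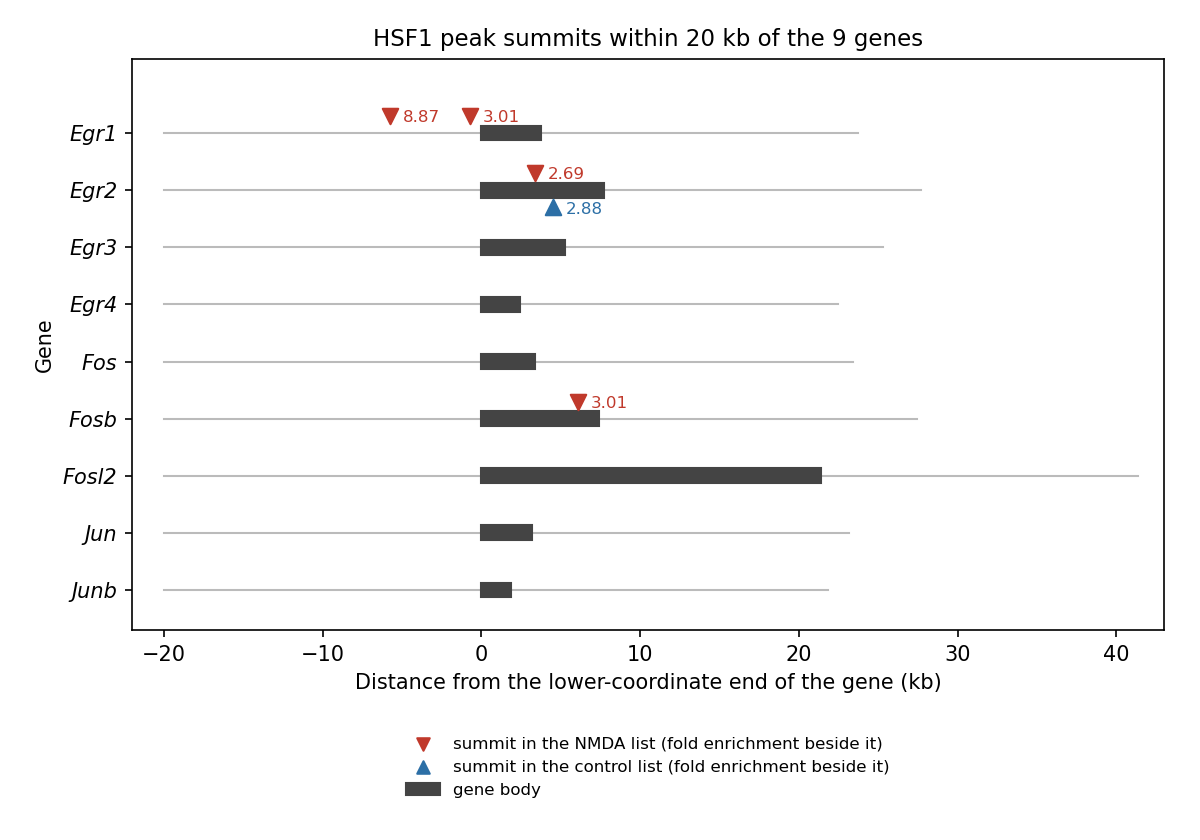
Position of every HSF1 peak summit within 20 kb of the 9 genes, in kb from the lower-coordinate end of each gene, with the gene body as a dark bar and the searched window as a grey line. Red triangles above the line are NMDA summits, blue triangles below it are control summits, and the number beside each is its fold enrichment. Egr1 has 2 NMDA summits to the left of the gene, Egr2 has 1 summit of each list inside it, Fosb has 1 NMDA summit inside it, and the other genes have none.

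Egr1, the zinc finger factor most used as a marker of neuronal activity, carried the strongest site. It lies at chr18:34861207-34864956. An NMDA peak at chr18:34855142-34855786 had its summit 5729 bp outside the gene and a fold enrichment of 8.87, with a −log10 q of 49.2 in the authors' list. This peak ranked 20th of 3646 by fold and 68th by width, at 645 bp against a list median of 303 bp. The peaks next to it in that ranking had 8.91-fold and 8.71-fold enrichment.

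The distal Egr1 site stood high for its position. Of the 20 NMDA peaks of this fold or more, 10 had the summit inside a protein-coding gene, 3 within 1000 bp outside one, 3 over 1000 and up to 20000 bp outside, and 4 farther away. Among the 339 NMDA peaks that lay over 1000 and up to 20000 bp outside their nearest protein-coding gene, whose median fold was 2.72, it ranked 3rd. An NMDA peak of at least this fold lay within 20 kb of 0.111% of protein-coding genes. No control peak overlapped it, while 6 of the 20 NMDA peaks, against 2.61% of the whole NMDA list, overlapped a control peak.

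A second NMDA peak, at chr18:34860137-34860657, lay 692 bp outside the same end of Egr1. It was of ordinary strength for the list, with 3.01-fold enrichment and a −log10 q of 2.83. Its width of 521 bp ranked 264th. The summits of the pair were 5037 bp apart. Such spacing was uncommon, as 3.51% of NMDA peaks had another NMDA summit that close and the median spacing was 185 kb. At least 2 NMDA peaks within 20 kb were found for 1.87% of protein-coding genes, and Egr1 was the only one of the 9 that had them.

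Egr1 is known to be transcribed toward higher coordinates in the mouse, which, as background, places both peaks upstream of it. The proximal peak is a gene-end site, of the kind that 1.93% of protein-coding genes had in the NMDA list within 1 kb of an end. It was the only gene-end peak of the 9 genes in the NMDA list, and the control list had 0 such peaks for them, against 2.55% of protein-coding genes. Gene ends here are the ends of the annotated gene body, so the NMDA peak at the internal starts of Egr2, described below, was not counted. The distal peak is a candidate enhancer by distance alone. Its nearest protein-coding gene was Egr1, followed by Reep2, an endoplasmic reticulum shaping gene, at 8015 bp, and Kdm3b, a histone demethylase gene, also lay within 20 kb. An annotated long noncoding RNA, Gm41689, was nearer than any of these, at 4490 bp. The control list had no peak within 20 kb of Egr1, and its nearest one was 67.6 kb from the gene with 2.57-fold enrichment, 0.53 kb outside Etf1, a translation release factor gene.

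Egr2, the family member best known for hindbrain patterning and Schwann cell myelination, was the only gene of the 9 with a peak in both lists. It spans chr10:67534469-67542188. The NMDA peak, at chr10:67537768-67538105, had 2.69-fold enrichment with −log10 q of 1.69, ranked 1800th and stood at the median of its list. The control peak, at chr10:67538824-67539141, had 2.88-fold enrichment with −log10 q of 2.19 and ranked 729th of 3316. Both lay inside the gene, but they did not overlap. Their summits were 1116 bp apart, with 718 bp between the peaks. A summit inside the gene was found for 6.56% of protein-coding genes in the NMDA list and for 6.88% in the control list. In all, 3.28% of protein-coding genes had a peak of each list within 20 kb, shared or not.

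The NMDA peak of Egr2 sat at its cluster of transcription starts, and the control peak lay downstream of it. The table gives 5 starts for Egr2. The NMDA summit was 4 bp upstream of the start at 67537869, 5 bp upstream of the one at 67537870 and 65 bp upstream of the last, at 67537930. It was 299 bp and 2366 bp downstream of the other two. The control summit was 1051 bp downstream of the last start. Of the 11 promoter windows of the family members in the table, which cover 250 bases before a start to 50 after it, 3 held an NMDA summit, all of them of Egr2, and 0 held a control summit. The 3 windows overlap and hold the same single summit. Of all 32841 windows, 107 held an NMDA summit and 123 a control summit, so 0 control summits in 11 windows is not particular to these genes.

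The 250 bases before the last Egr2 start are shown because 162 of them lie in the NMDA peak and because they hold a CArG box. They come from the RefSeq promoter table on GRCm38.p6, chr10:67537680-67537929, plus strand, and capitals mark that box.
Egr2 start region: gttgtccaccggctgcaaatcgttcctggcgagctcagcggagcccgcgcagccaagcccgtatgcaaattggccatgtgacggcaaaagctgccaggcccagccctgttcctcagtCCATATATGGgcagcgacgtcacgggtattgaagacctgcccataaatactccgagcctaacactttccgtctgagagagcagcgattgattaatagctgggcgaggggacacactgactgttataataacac
The NMDA summit is base 186 of this stretch, and the centre of the CArG box was 63.5 bp before it. A CArG box, searched on both strands, was present in 3 of the 107 promoter windows that held an NMDA summit (2.8%). It was also in 3 of the 123 windows that held a control summit (2.44%) and in 1.63% of all 32841 windows in the table. The 3 windows with an NMDA summit are overlapping ones of Egr2 with the same summit and box. Of the other 104 windows with an NMDA summit, 0 held a CArG box. Another Egr2 window held a different CArG box, CCTTTTTTGG, which began 72 bp before the start at 67537566, outside both Egr2 peaks. A match is only a match of letters and does not show that SRF was bound.

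The heat shock element, the repeated unit that HSF1 recognises, was then searched in the promoter windows on both strands. The 3-unit form, in which GAA and TTC alternate with 2 bases between units, was in no window of the 7 members matched in the table (Egr2, Egr4, Fos, Fosb, Fosl2, Jun and Junb). It was in 12.1% of the 107 windows with an NMDA summit, in 4.88% of the 123 windows with a control summit and in 0.603% of all windows. Windows of neighbouring starts can overlap, so the same element and summit can be counted in several windows. The 2-unit form, GAANNTTC or TTCNNGAA, which is contained in every 3-unit match, was in windows of Egr2, Fosl2 and Jun. It was in 25.2% of the windows with an NMDA summit, in 13.8% of those with a control summit and in 15.1% of all windows. The Egr2 match, TTCCGGAA, began 131 bp before the start at 67537566, outside both Egr2 peaks, and the Fosl2 and Jun windows held no summit. Of the other motifs, the CRE TGACGTCA, the AP-1 site TGANTCA and the EGR site GCGTGGGCG were in no member window, against 1.79%, 7.81% and 0.612% of all windows. Only matches to these exact letters were counted, so shorter or variant sites of these factors were not searched. Egr1 and Egr3 were not searched, and the Fosb peak lies outside these windows, so none of this bears on the Egr1 and Fosb peaks. The last Egr2 window ends at 67537979, inside the NMDA peak of Egr2 and before its control peak. The rest of that NMDA peak and all of the control peak were therefore not searched for any motif.

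Egr3 and Egr4, the remaining Egr genes, had no peak within 20 kb in either list. Egr3, at chr14:70077317-70082613, was the farthest of the 9 genes from an NMDA peak, at 826 kb, and its nearest control peak was 1040 kb away. Egr4, at chr6:85511121-85513589, had its nearest NMDA peak 59 kb away, a 3.12-fold site inside the chaperonin gene Cct7. Its nearest control peak was 209 kb away inside Sfxn5, a mitochondrial carrier gene.

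Fosb, whose truncated product ΔFosB accumulates in neurons with repeated activity, was the only Fos gene with a peak. The gene lies at chr7:19302696-19310118 on the minus strand, and its NMDA peak was at chr7:19308668-19308992. The summit was inside the gene, 1271 bp downstream of the annotated start and 1344 bp from the nearer gene end. Its fold of 3.01 and its q were identical to those of the proximal Egr1 peak. These values were shared by 181 NMDA peaks in all, tied at rank 812. The 3646 NMDA peaks had 467 distinct folds, so equal values at a pair of genes were common. The nearest control peak of Fosb was 137 kb away.

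**Figure D2:**
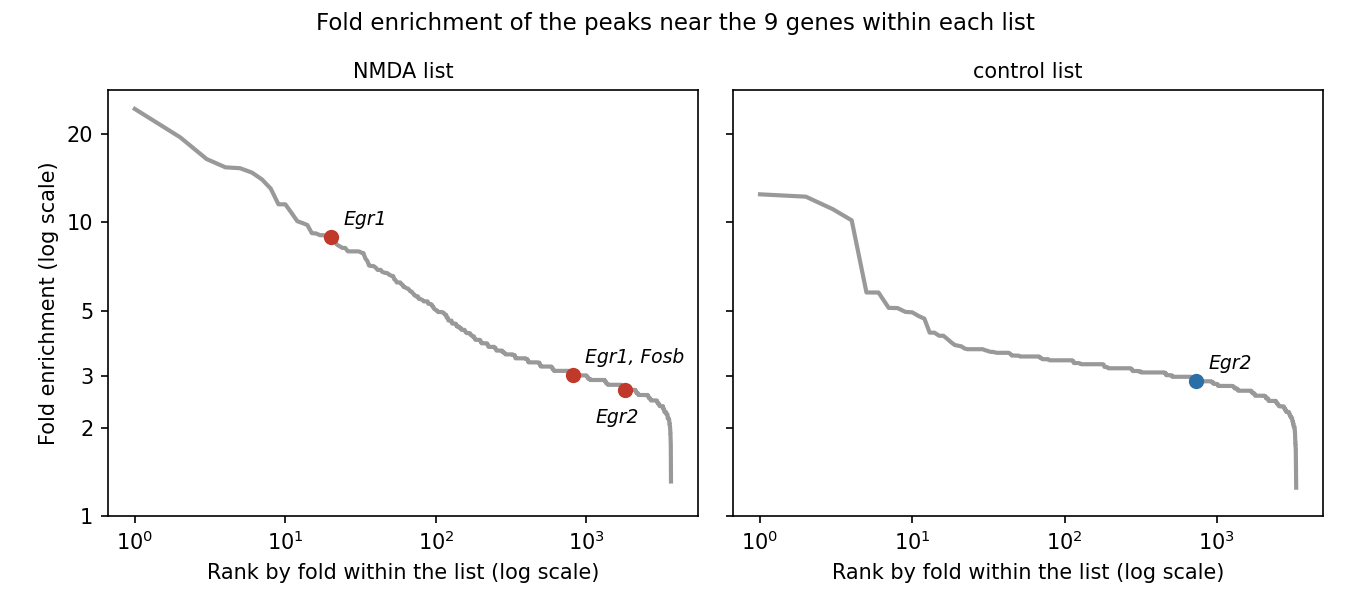
Fold enrichment against rank within each list, both on log scales, with all peaks as a grey line and the peaks within 20 kb of the 9 genes as points (NMDA list left, control list right). The distal Egr1 peak, at 8.87-fold, sits on the steep part of the NMDA curve, and the Egr1 and Fosb peaks at 3.01-fold and both Egr2 peaks sit on the flat part.

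Fos, the prototype immediate early gene and AP-1 subunit, had no peak within 20 kb. It lies at chr12:85473890-85477274, and the nearest NMDA peak, a 3.66-fold site inside the mitotic kinase gene Nek9, was 135 kb away. The nearest control peak was 1290 kb away, the largest distance of the 9 genes. Fosl2, which encodes the FRA2 subunit of AP-1, lies at chr5:32136472-32157840 and was 266 kb from an NMDA peak inside Babam2 and 453 kb from a control peak.

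Jun and Junb, which encode the basic AP-1 partners of the FOS proteins, also had no peak within 20 kb. Jun, at chr4:95049036-95052222, was 213 kb from its nearest NMDA peak, of 2.69-fold, and 371 kb from its nearest control peak, of 2.92-fold. Junb, at chr8:84976909-84978748, came closest to the window of the genes outside it. A 2.22-fold NMDA peak inside another gene, Trir, was 49.1 kb away, and a 2.67-fold control peak inside the nuclear import gene Tnpo2 was 59.8 kb away. Thus the farthest summit assigned to any of the 9 genes was at 5729 bp and the nearest unassigned one at 49.1 kb, so no peak lay near the limit of the window.

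Distances to the nearest peak were mostly shorter in the NMDA list. The median distance of the 9 genes was 59 kb for NMDA peaks, against 278 kb over all protein-coding genes, and 209 kb for control peaks, against 257 kb. For 8 of the 9 genes the nearest NMDA peak was nearer than the nearest control peak, and Egr2 had a peak of each list inside it. Over all protein-coding genes the NMDA peak was the nearer in 46.8%. Within 50 kb, however, the 8 genes had NMDA peaks at Egr1, Fosb and Junb and no control peak, so most of these distances join a gene to peaks that lie far from it.

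**Figure D3:**
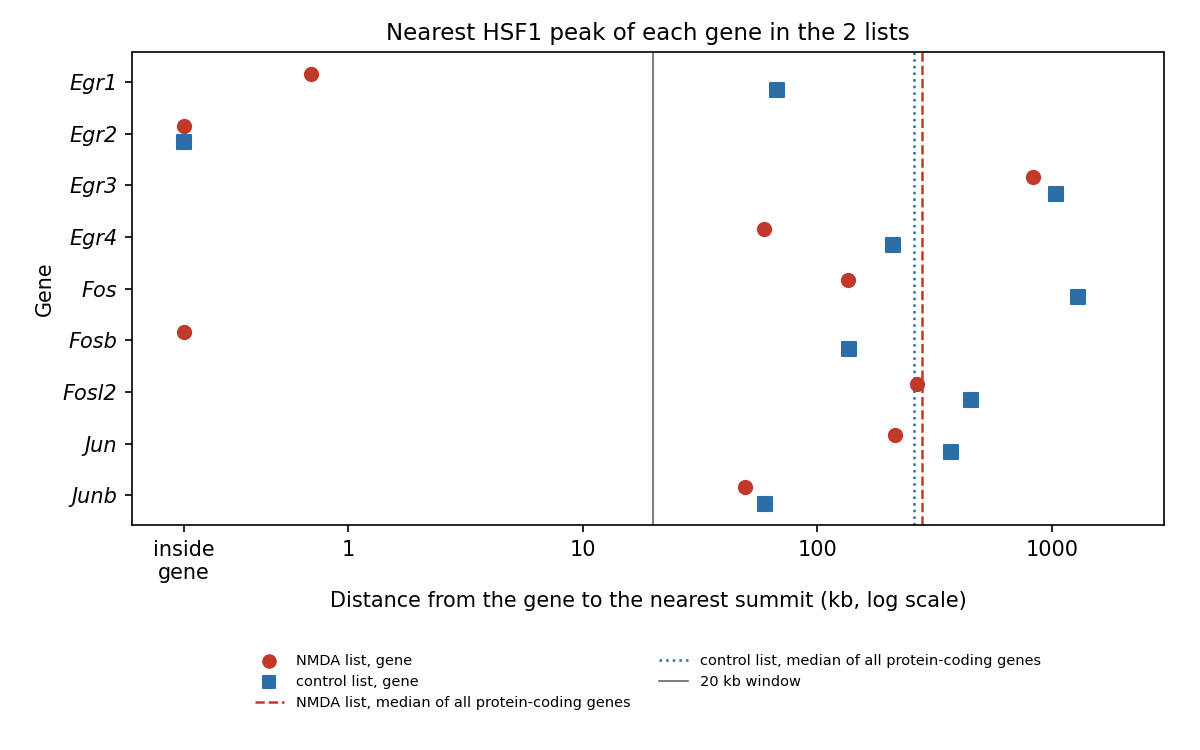
Distance in kb (log scale) from each of the 9 genes to its nearest summit in the NMDA list (red circles) and in the control list (blue squares), with summits inside a gene set apart at the left. Dashed and dotted lines give the medians over all protein-coding genes, 278 kb for the NMDA list and 257 kb for the control list, and the grey line marks 20 kb. Egr1, Egr2 and Fosb lie left of the grey line in the NMDA list and Egr2 alone in the control list.

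None of the 5 peaks near the family overlapped a peak of the other list, and only 2.61% of all NMDA peaks and 2.9% of all control peaks did, so 0 of 5 is not particular to these genes. The distances between summits of the 2 lists were 1.12 kb at Egr2 and at least 72 kb at the Egr1 and Fosb peaks. Absence of a peak from a list does not show absence of HSF1, because depth and the input signal at these genes are unknown.

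The genes around the family in the same pathway were counted next, in 3 lists of 63 genes in all. Of these, 12 (19%) had an NMDA peak and 15 (23.8%) a control peak within 20 kb, against 11.4% and 12.6% of all protein-coding genes. Both lists had a peak at 4 of the 63 genes, against 3.28% of all protein-coding genes, and neither list had one at 40, against 79.3%. The 21 NMDA peaks of the pathway genes had 2.50-fold to 5.81-fold enrichment, so none reached the distal Egr1 peak. The 19 control peaks had 2.31-fold to 3.30-fold enrichment.

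Of 12 family relatives and dimer partners, 1 (8.33%) had an NMDA peak and 2 (16.7%) had control peaks, near the shares of all protein-coding genes. Atf4, a stress-response factor that can pair with AP-1 proteins, had a 2.90-fold NMDA peak inside the gene, 602 bp from an end. Nab2, a corepressor that binds EGR proteins, had control peaks of 2.98-fold, 1807 bp outside the gene, and of 2.46-fold inside it. Atf2, a JUN partner, had control peaks of 2.46-fold, 18970 bp outside the gene, and of 2.31-fold inside it. The 2.46-fold peaks of Nab2 and Atf2, each with a −log10 q of 1.15, did not reach q below 0.05. Nor did the 2.31-fold Atf2 peak, with a −log10 q of 0.948. Fosl1 and Jund, the other Fos and Jun genes, had none.

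Upstream regulators had peaks within 20 kb of 8 of 22 genes (36.4%) in the NMDA list and of 5 (22.7%) in the control list. The shares over all protein-coding genes were 11.4% and 12.6%. Their median length was 70.4 kb, far above the 3.75 kb of the family and the 17.3 kb of all protein-coding genes. Their shares are thus not directly comparable with those of the 9 genes or of all protein-coding genes. Rps6ka5, which encodes the kinase MSK1 that phosphorylates CREB and histone H3, had 4 NMDA peaks, the strongest of 3.76-fold, and no control peak. Mef2c, a neuronal activity-responsive factor, had 3 NMDA and 2 control peaks. A pair of these, at 2.62-fold in the NMDA list and 3.30-fold in the control list, overlapped inside the gene and was the only overlap among all the pathway peaks. In the whole lists, 2.61% of NMDA peaks and 2.9% of control peaks overlapped a peak of the other list. Creb1 had a 2.82-fold NMDA peak inside the gene, 1013 bp from its end. Its control peaks were of 2.94-fold, inside the gene, and of 2.51-fold, 12726 bp outside it. Of the coactivator genes, Ep300 had a 2.90-fold NMDA peak 9438 bp outside the gene and a 3.15-fold control peak inside it. Crebbp had a 2.80-fold NMDA peak. Elk3, a partner of SRF, had a 2.86-fold NMDA peak, and Mef2a and the calcium-dependent kinase gene Camk4 had NMDA peaks of 2.80-fold each. Mapk3, which encodes the kinase ERK1, had a 3.02-fold control peak 15046 bp outside the gene, and Mef2d had a 2.77-fold control peak inside it. Srf itself had no peak in either list.

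Other immediate early genes were more often near control peaks than near NMDA peaks. Of 29 genes, 3 (10.3%) had an NMDA peak within 20 kb, near the 11.4% of all protein-coding genes. A control peak was found for 8 (27.6%), against 12.6% of all protein-coding genes. In the NMDA list the peaks of Npas4, an activity-induced neuronal transcription factor gene, were the strongest, with 5 peaks of 2.90-fold to 5.81-fold, followed by Rheb, a GTPase gene of the mTOR pathway, with 2.80-fold, and Homer1, a postsynaptic scaffold gene, with 2.56-fold. Homer1 also had a 2.83-fold control peak, 867 bp from an end. Control peaks also lay inside Nr4a2, an orphan nuclear receptor gene (3.18-fold), Ccn1, a matricellular protein gene (3.08-fold), and Per1 (2.88-fold). The remaining ones lay outside their genes. Those of the MAP kinase phosphatase genes Dusp5 (2.98-fold) and Dusp1 (2.81-fold) were 415 bp and 1592 bp away. Those of Rgs2 and Btg2 (2.88-fold each) were 2135 bp and 13825 bp away. Of these 29 genes, 7 had a peak in the control list alone, against 9.3% of all protein-coding genes, and 2, Npas4 and Rheb, in the NMDA list alone, against 8.17%. Of the 9 Egr, Fos and Jun genes, 0 had a peak in the control list alone and 2, Egr1 and Fosb, in the NMDA list alone. This difference between lists was not tested, and the members and gene lists were chosen with earlier results of these data known.

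**Figure D4:**
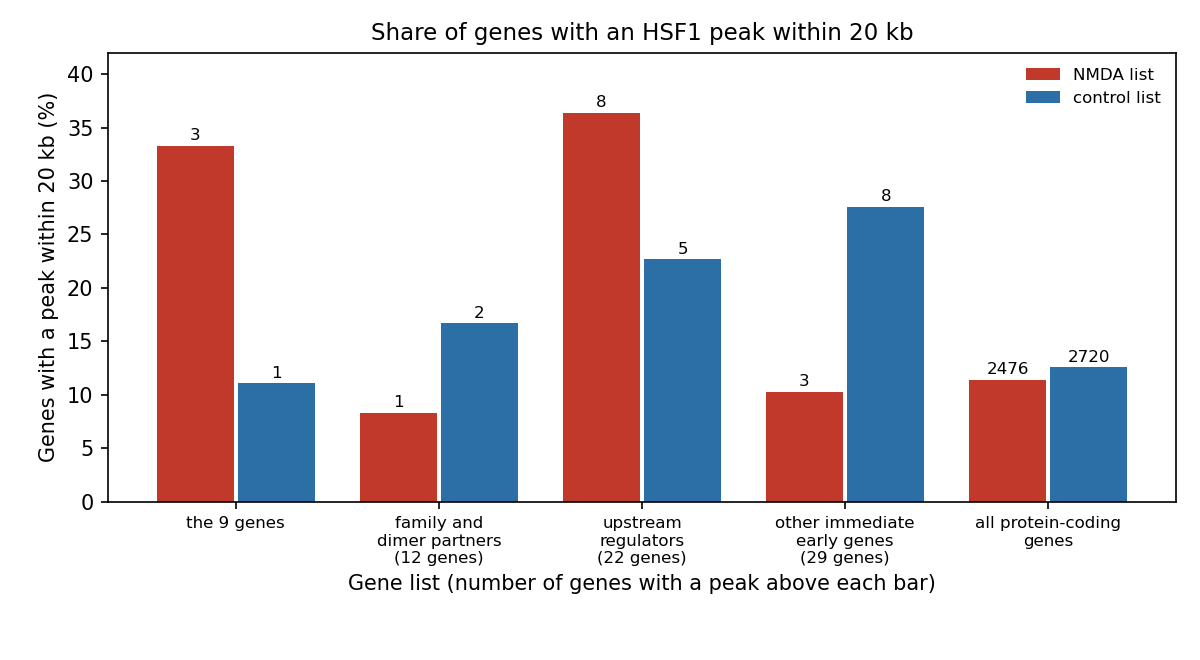
Percent of genes with an HSF1 peak within 20 kb in the NMDA list (red, left bar) and the control list (blue, right bar) for the 9 genes, the 3 pathway lists and all protein-coding genes, with the number of genes above each bar. The 9 genes stand at 3 NMDA and 1 control, the other immediate early genes at 3 and 8 of 29, and all protein-coding genes at 11.4% and 12.6%.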

How the data were processed

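HSF1 ChIP-seq of 2 NMDA and 2 control libraries, with 1 untreated input, was analysed from 1 deposited peak list per condition. Per the submitters' processing notes, the tools were MACS2, BWA, SAMtools, Trimmomatic and FastQC, of no given version, and the builds GRCm38.p6 and mm10. The way a condition's libraries were combined is unstated. The authors' lists give a peak score, a fold enrichment (a ratio at the summit), a −log10 q, and the distance from peak start to summit. They hold no values per library, so depth and its precision are unknown, and neuronal identity could not be checked from marker genes. Each list was assigned by the condition in its name.

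Genes came from RefSeq on GRCm38.p6 (21631 protein-coding genes), and starts, strands and sequence from its promoter windows (32841 used, 10 with other letters left out). This reference is of C57BL/6J, and the neurons were Swiss-Webster. Egr1 and Egr3 had no window, so they have no start positions here and were left out of the motif search. Their peaks and distances were counted like those of the other genes. Distances run from the summit to the gene body. Peaks overlapping by at least 1 bp counted as shared. Counts are set beside the same counts over all protein-coding genes, and no test was run. Functions were tested on simulated peaks and motifs. Python 3.11.15, numpy 2.4.6 and pandas 2.3.3 were used. All 9 members were named, and pathway genes with a peak within 20 kb up to 10 per list and condition. Members and lists were chosen with earlier results of these data known. Alternatives were other windows, any peak base in place of the summit, q below 0.05, folds at or above the median, nearest gene only and other overlap rules.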

Additional observations from a re-analysis of the deposited data

How the results depend on the processing

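The counts at the Egr, Fos and Jun genes held within 1.5 times under every alternative run. NMDA peaks were near Egr1, Egr2 and Fosb in all of them, joined by Junb (4 genes, 5 peaks) with a window of 50 kb, and the distal Egr1 peak was lost with 5 kb or 1 kb (3 peaks). The rule on the median fold kept the NMDA peak of Egr2 only because its fold equalled the list median of 2.69. The control list had Egr2 alone throughout, and 0 peaks near the 9 genes were shared under any rule, where the whole NMDA and control lists shared 1.59% and 1.75% with an overlap of at least 50% of each peak and 2.74% and 3.05% with summits within 500 bp. The shares over all protein-coding genes moved, in the NMDA and control lists, to 8.16% and 8.95% with 5 kb, 9.41% and 10.3% with 10 kb, 17.6% and 19% with 50 kb, 7.37% and 7.8% with 1 kb, 9.08% and 9.38% with q below 0.05, 7.18% and 7.2% with folds at or above the list median, and 8.34% and 8.83% with each peak given only to its nearest protein-coding gene. Single replicates could not be left out of lists that combine them. No paired analysis was possible because neither list gives values for single libraries. The read depth is unknown, the input is of untreated neurons only, and counts of 1 to 4 genes allow no firm statement.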
